A study of Drosophila melanogaster with 2 samples.

Results

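Peaks of the CG31365 protein were described at the 44 Drosophila melanogaster genes that encode translation initiation factors. The genes were chosen by symbol, as every protein-coding gene of the Ensembl annotation whose name starts with eIF and a digit, and they are 44 of 13945 protein-coding genes on the chromosomes that carry peaks. The study mapped CG31365 by chromatin immunoprecipitation and sequencing (ChIP-seq) in whole embryos of a transgenic fly line that stably expresses the protein with GFP at its C terminus. Embryos of both sexes were pooled over 0 to 24 h of development, so that a peak is an average over all their tissues. There was 1 group of 2 libraries, biological replicates 2 and 3, and no other genotype or treatment. One free-text field of the labels calls the libraries input controls while their antibody and target fields name CG31365, and they were read here as ChIP libraries. Each replicate gave a list of 30000 peaks and background regions, the 2 replicates together gave a pooled list of the same length, and 2821 peaks are in the list thresholded by irreproducible discovery rate (IDR peaks). All 2821 IDR peaks are the highest 2821 of the pooled list, with the same intervals and signals, so a peak has the same rank in both. Each peak has a summit and a signal value, the enrichment score that the authors' peak caller gave it, which ranks peaks within a list only. A gene is said to have a peak where a summit lay within 1000 bp of one of its transcription start sites (TSSs). Distances are from the gene's nearest start site, with upstream and downstream taken from that site, and 15 of the 44 genes have several. Coordinates are on assembly dm6. Read depth is unknown, and the intervals given cover counting over genes only.

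Translation initiation factors bring the initiator tRNA, the mRNA and both ribosomal subunits together at a start codon. The factors named eIF1 and eIF1A act in scanning and start codon choice. The trimer eIF2 carries the initiator tRNA and is recharged with GTP by eIF2B, eIF3 is a scaffold of many subunits on the small ribosomal subunit, and the eIF4 proteins recognise and unwind the capped mRNA. GTP hydrolysis and subunit joining follow with eIF5 and eIF5B, and eIF6 keeps large ribosomal subunits from joining too early. The study's labels treat CG31365 as a transcription factor.

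An IDR peak lay at 11 of the 44 genes: eIF1, eIF1A, eIF2A, eIF2Bbeta, eIF2beta, eIF3a, eIF3b, eIF3h, eIF4EHP, eIF4G2 and eIF6. They form 25% of the genes (95% Wilson interval 14.6 to 39.4), against 13.9% of all protein-coding genes. All 12 summits at these genes (eIF4G2 has 2 of them) had a partner within 100 bp in both replicate lists, at most 66 bp away. The IDR peaks are the highest of a pooled list made from both replicates. This match was therefore largely given by the choice and is no separate support. The strongest peaks were upstream of eIF2Bbeta (rank 75 of 2821), eIF6 (rank 158) and eIF1 (rank 469), and the weakest was at eIF2A (rank 2724). The bases under 4 of these summits are printed here because they are the highest peak, a peak shared with a ribosomal protein gene, a peak on a DNA replication-related element, and the highest peak of the cap-binding group. They were read from RefSeq's sequence of this assembly, on the strand of the initiation factor gene and centred on the summit. Capitals mark a match, on either strand, to one of the short words searched for named further on with their counts.
eIF2Bbeta, chrX:2703829-2703949, plus strand: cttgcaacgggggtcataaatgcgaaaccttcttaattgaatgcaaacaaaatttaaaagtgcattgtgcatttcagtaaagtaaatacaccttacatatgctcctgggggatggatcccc
eIF1, chr3L:3222957-3223017, plus strand: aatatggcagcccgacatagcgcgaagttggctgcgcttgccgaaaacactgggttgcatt
eIF3a, chr3R:4433884-4433944, minus strand: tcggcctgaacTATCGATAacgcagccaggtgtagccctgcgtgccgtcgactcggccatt
eIF4EHP, chr3R:24109082-24109202, minus strand: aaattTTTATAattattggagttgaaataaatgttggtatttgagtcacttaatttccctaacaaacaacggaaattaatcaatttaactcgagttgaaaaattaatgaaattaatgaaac

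The higher share was seen among the highest peaks and not over the full lists. In the pooled list 22 of the 44 genes had a peak (50%, interval 35.8 to 64.2, against 55.6% of all protein-coding genes). The replicate 2 list held 23 of them (52.3%, against 56.5%) and the replicate 3 list 24 (54.5%, against 57.8%), and 20 were in both (45.5%, against 46.2%). Each of these shares was near that of all genes. A gene was counted in both where each list had a summit in its window, which need not be the same peak, as at eIF3m. Where only the 2821 highest peaks of each replicate were counted, 9 genes were in both lists (20.5%, interval 11.2 to 34.5, against 10.7%). Of the 22 genes with a pooled peak, 11 were on the IDR list (50%, with an interval from 30.7 to 69.3), and 25% of the 7751 protein-coding genes with a pooled peak were. No test of the list was made, since it was proposed with results of these data known. The count rests on the window and on the depth of the list. With a window of 200 bp it was 6 genes (13.6%, against 8.13% of all genes), and with the higher 1410 IDR peaks it was also 6 (13.6%, against 7.42%).

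**Figure D1:**
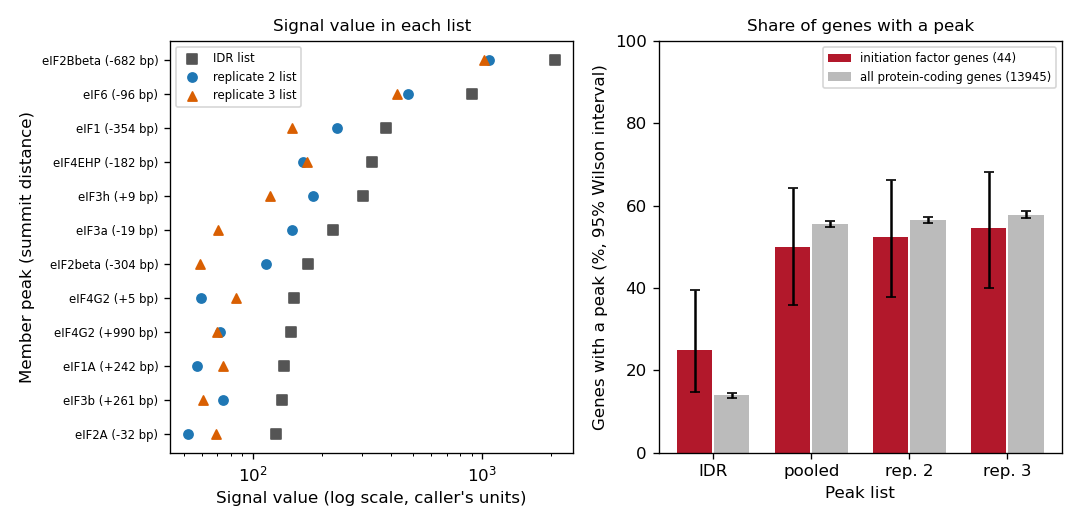
Left, the signal value (log scale, peak caller's units) of each of the 12 IDR peaks at initiation factor genes in the IDR list and of the matching peak in each replicate list, with the summit's distance from the gene's start site in brackets; values from different lists are not on 1 scale. Right, the percentage of the 44 genes and of all 13945 protein-coding genes with a summit within 1000 bp of a start site in each list, with 95% Wilson intervals: the shares are 25% and 13.9% for IDR peaks and 50% and 55.6% for pooled peaks.

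The first factor class has only 2 genes, eIF1 and eIF1A, and the IDR list held a peak at each. The Wilson interval for so small a class runs from 34.2% to 100%, and the share over all protein-coding genes was 13.9%. The pair was not complete under every setting. A window of 200 bp lost both genes, and giving each peak to the nearest protein-coding start site lost eIF1. The higher 1410 IDR peaks, and the list without replicate 3, lost eIF1A. The other alternatives kept both. The product of eIF1 guards the choice of the start codon, and its peak (3L, 3222887 to 3223094) had a signal of 381.8 in the IDR list, 232.1 (rank 397) in replicate 2 and 147.6 (rank 649) in replicate 3. The summit lay 354 bp upstream of eIF1 but only 27 bp upstream of RpL28, a gene of the large ribosomal subunit that starts 381 bp away on the opposite strand. Of these 2 genes RpL28 therefore had the nearer start site, in the bases printed above. The gene eIF1A, whose product helps the small subunit scan, had a weaker peak in its coding exon, 242 bp downstream of the nearer of its 2 start sites and 275 bp from the other (3R, 18274748 to 18275131, signal 137.3, rank 2367). That peak ranked 3983 in replicate 2 (signal 57.3) and 1981 in replicate 3 (74.3), so it was among the 2821 highest of 1 replicate only. It was also 494 bp upstream of Vps39, a gene of endosome and vacuole tethering.

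The genes numbered eIF2, which include eIF2A and eIF2D beside the subunits of eIF2 and eIF2B, held the strongest and the weakest of the peaks. At eIF2Bbeta, a regulatory subunit of the exchange factor for eIF2, the signal was 2076 in the IDR list (X, 2703701 to 2704056), 1072.1 in replicate 2 (rank 85) and 1016.8 in replicate 3 (rank 60). It was among the 100 highest in every list. Its summit was 682 bp upstream of eIF2Bbeta and 37 bp upstream of Ugalt, the UDP-galactose transporter gene, which starts 719 bp away on the opposite strand. None of the 6 words searched for matched in the bases printed above, and none within 100 bp of the summit.

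At eIF2beta, which encodes a subunit of the carrier of the initiator tRNA, the signal was 173.4 (3L, 12526843 to 12527226, rank 1614), 304 bp upstream in intergenic sequence. Replicate 2 placed it at rank 1207 (114.2) and replicate 3 at rank 2978 (59.1). No other gene started within 1000 bp, so this peak was not shared. The noncanonical factor gene eIF2A had a peak of signal 126.7 (3L, 21824741 to 21825124) in its own 5′ UTR, 32 bp upstream of its nearer start site, and no other gene within 1000 bp. It ranked 4649 in replicate 2 (52.4) and 2253 in replicate 3 (69.3).

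With 3 of 10 genes the class had a share of 30% (interval 10.8 to 60.3, against 13.9% of all), and the other 7 had no IDR peak. Pooled peaks stood at 4 of them. The highest was at eIF2D, a gene of noncanonical initiation and ribosome recycling, with a signal of 73.7 (rank 6602), 39 bp upstream. At eIF2Bgamma it was 58.8 (rank 9291), at eIF2Bdelta 43.9 (rank 14521) and at eIF2Bepsilon, the catalytic subunit, 42.6 (rank 15213). The replicates differed at 2 of these genes. At eIF2Bepsilon replicate 3 held peaks of rank 2189 (70.4, 395 bp upstream) and 6051 (600 bp upstream), and replicate 2 none within 1000 bp. The pooled peak, 608 bp upstream, lay by the lower of these. At eIF2Bdelta replicate 2 held peaks of rank 9841 (168 bp upstream) and 14400 (715 bp upstream), and replicate 3 none. There too the highest pooled peak, 721 bp upstream, lay by the lower one. Of the eIF2 trimer only eIF2beta had a peak in any list, and eIF2alpha, eIF2gamma and eIF2Balpha had none in any.

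Among the 16 eIF3 genes 3 had an IDR peak (18.8%, interval 6.59 to 43.0), a share close to the 13.9% of all protein-coding genes. At eIF3h the signal was 303.4 (2L, 5052732 to 5052894, rank 686), 183.9 in replicate 2 (rank 548) and 118.7 in replicate 3 (rank 933), and the summit lay in its 5′ UTR. It was 9 bp downstream of the inner of its 2 start sites, and 323 bp from the outer one. The neighbour senju, a Golgi sugar transporter gene on the opposite strand, starts 63 bp from that inner site. At eIF3a, the large scaffold subunit, the signal was 223.1 (3R, 4433722 to 4434105, rank 1107), with 147.7 in replicate 2 (rank 805) and 70.7 in replicate 3 (rank 2169). Its summit was 19 bp upstream and 51 bp upstream of CG1074, which starts 70 bp away on the opposite strand, so both genes start under the peak. At eIF3b, another core subunit, a peak in the first part of the gene, 261 bp from its nearest start site and in an intron (2R, 17536402 to 17536785), had a signal of 133.5 (rank 2497). It ranked 2495 in replicate 2 (74.2) and 2788 in replicate 3 (61). The nearest other start site, 728 bp from the summit, was that of Patronin, a gene for a protein of microtubule minus ends.

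The gene eIF3c had high peaks in both replicates and none in the pooled list. In replicate 2 it had a peak of signal 88.6 (rank 1823, 29 bp upstream), and in replicate 3 one of 64.5 (rank 2558, 21 bp upstream). Both were among the 2821 highest of their lists, but the nearest pooled summit was 5105 bp away and the nearest IDR summit 48883 bp away. Whether the pooled list, and with it the IDR list, is complete at eIF3c was not tested, so no lack of binding can be read from the missing entry. Over all protein-coding genes 4 were high in both replicates and had no pooled peak, the others being CCHa1-R, PIG-Q and U2af50, and 213 were in both full lists without a pooled peak. Pooled peaks stood at 3 further eIF3 genes, with signals of 70.3 at eIF3m (rank 7036), 57.8 at eIF3f1 (rank 9528) and 29.2 at eIF3l (rank 27245). The eIF3m peak had a counterpart of rank 3478 in replicate 2, and the 1 peak of replicate 3, of rank 27564, was elsewhere, 350 bp downstream of a start site. At eIF3k replicate 3 alone held peaks, the highest of rank 3892, and at eIF3d1 both replicates held one, of rank 13349 and 13332. The other 7 genes, eIF3d2, eIF3e, eIF3f2, eIF3g1, eIF3g2, eIF3i and eIF3j, had no peak in any list.

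In the cap-binding and helicase class 2 of 13 genes had an IDR peak (15.4%, interval 4.33 to 42.2), which is near the 13.9% of all protein-coding genes. Neither is the gene of the main cap-binding protein, scaffold or helicase. The higher was at eIF4EHP, a cap-binding repressor of translation, with a signal of 332.1 (3R, 24108950 to 24109333, rank 580), 165.1 in replicate 2 (rank 674) and 173.1 in replicate 3 (rank 495). Its summit was 182 bp upstream, in intergenic sequence between eIF4EHP and CG18428, which start 376 bp apart on opposite strands. The bases within 100 bp of it were 24.4% G or C, against 33.3% to 51.2% at the other 11 summits. The gene eIF4G2, a paralog of the eIF4G scaffold that is needed in the male germ line, had a pair of IDR peaks. The first lay 5 bp downstream of the start site that it shares with CG33111 (3R, 23819040 to 23819423, signal 150.5, rank 2018), and the second in an intron (3R, 23817637 to 23818020, signal 147.5, rank 2093). That summit was 1408 bp from the shared start site and 990 bp downstream of another start site of eIF4G2. Their order differed between replicates, since the first ranked 3725 in replicate 2 and 1587 in replicate 3, and the second 2621 and 2234. The second was the member summit nearest to the edge of the 1000 bp window. The nearest IDR summits outside it were 1278 bp upstream of eIF2Bgamma (rank 1715) and 1301 bp upstream of eIF3d1 (rank 1884).

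The main helicase gene eIF4A missed the IDR list narrowly. Its pooled peak of signal 119.8 ranked 3015, below the lowest IDR peak of 124.1, and lay 710 bp upstream. In replicate 3 its highest peak ranked 1712 (81.3, 826 bp upstream), and in replicate 2 the highest was another one, of rank 4342 (54.4, 29 bp upstream). At eIF4H1, a helicase cofactor gene, the pooled signal was 99 (rank 4154, 83 bp downstream), and at eIF4E1, the main cap-binding protein gene, 67.8 (rank 7455). The scaffold gene eIF4G1 and the helicase cofactor gene eIF4B had no peak in any list. Their nearest pooled summits were 29013 bp and 590942 bp away, the latter the largest distance among the 22 genes without a pooled peak, of which eIF3d1 had the smallest at 1100 bp. No entry of any list has a summit nearer to eIF4B than that, and whether reads can be placed there was not tested.

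Genes of the late steps differed. At eIF6, the anti-association factor of the large subunit, the signal was 903.8 (2R, 23850274 to 23850537, rank 158), with 474.1 in replicate 2 (rank 165) and 424.1 in replicate 3 (rank 149), so that its place was nearly the same in each list. The summit was 96 bp upstream of eIF6, in an intron of ytr and 67 bp inside the antisense transcript asRNA:CR45928, which starts 29 bp from eIF6 on the opposite strand. The GTPase-activating factor gene eIF5 had no peak in any list. The subunit-joining factor gene eIF5B had a pooled peak with a signal of 61.4 (rank 8660), 159 bp upstream of its inner start site and 215 bp inside the gene as counted from the outer one. It had ranks of 14576 in replicate 2 and 13414 in replicate 3.

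**Figure D2:**
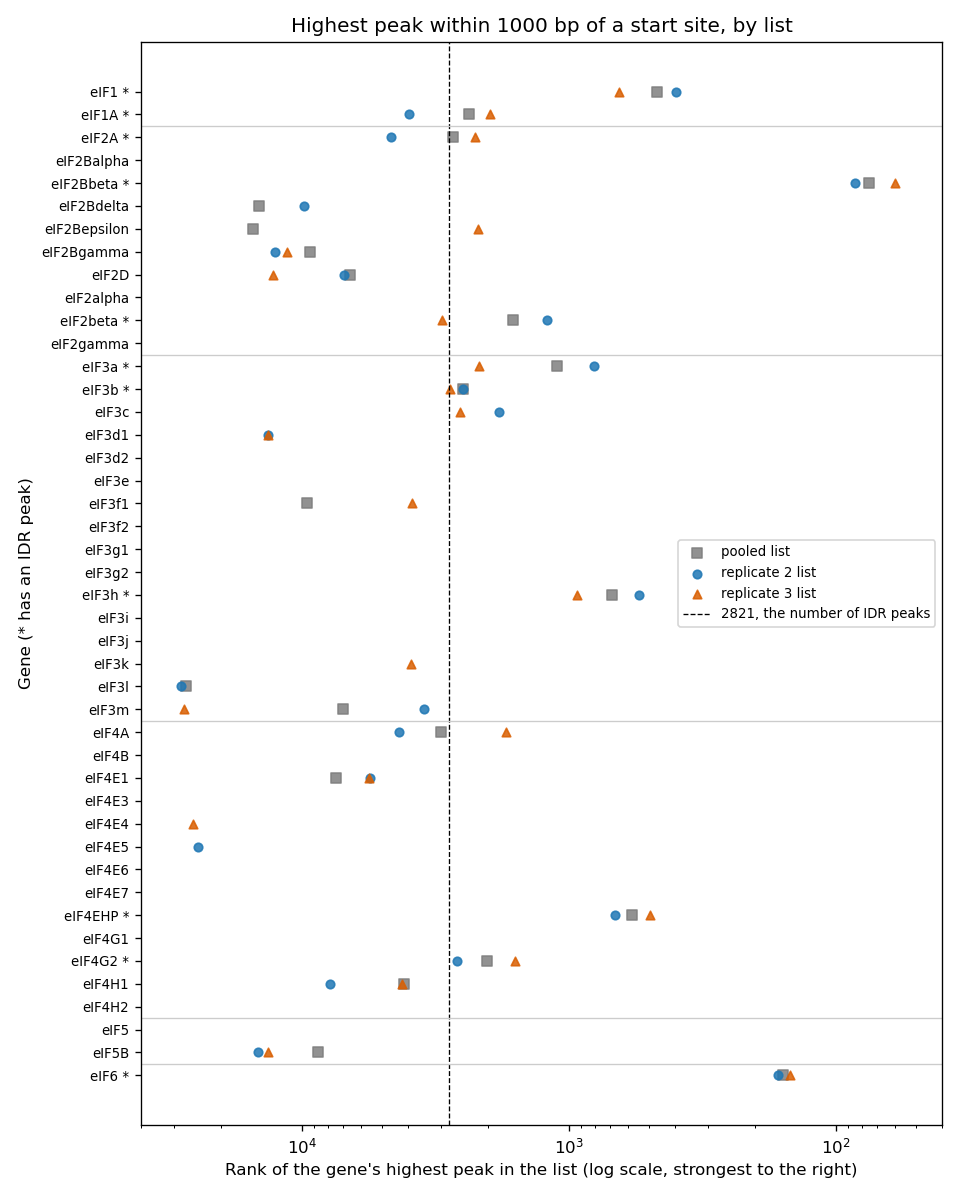
Rank of the highest peak within 1000 bp of a start site for each of the 44 genes (vertical, grouped by factor number, with an asterisk for an IDR peak) in the pooled and the replicate lists (log scale, strongest to the right); genes without a symbol have no peak in that list. The dashed line is rank 2821, the length of the IDR list; eIF2Bbeta and eIF6 are the farthest right, and 17 genes have no symbol at all.

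Of all 44 genes 17 (38.6%) had no peak in any of the 4 lists, against 31.1% of all protein-coding genes. Of these 17 genes, 7 were numbered paralogs, the second or later copies of a subunit gene. Among the 10 numbered paralogs 1 had an IDR peak (eIF4G2) and the same 1 a pooled peak (10%, interval 1.79 to 40.4), whereas 10 of the other 34 had an IDR peak (29.4%, 16.8 to 46.2) and 21 a pooled peak (61.8%, 45.0 to 76.1). Over all protein-coding genes these shares were 13.9% and 55.6%, near the paralogs' share of IDR peaks and the other members' share of pooled peaks. The difference between the groups was not tested. The other 9 paralogs were eIF3d2, eIF3f2, eIF3g2, eIF4E3, eIF4E4, eIF4E5, eIF4E6, eIF4E7 and eIF4H2. Of these, eIF4E4 and eIF4E5 had a peak in 1 replicate list only, at rank 25467 and 24407.

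Summits at these genes lay at distances like those of other genes. The highest IDR peak of each of the 11 genes had a median distance of 182 bp from the start site, against 176.5 bp for the 1938 protein-coding genes with an IDR peak, and 7 were upstream (63.6%, against 75.4%). A summit within 100 bp was found at 5 of the 11 (45.5%, against 30.8%). The median rank was 1107 against 1297.5 and the median signal 223 against 200. None of these differences was tested, and 11 genes allow only wide ranges.

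For 3 of the 11 genes, eIF2Bbeta, eIF6 and eIF1, another start site was nearer to the summit than that of the initiation factor gene, and these were the 3 highest peaks. Over all protein-coding genes with an IDR peak the gene's own start site was nearest, or tied, for 71.5%, and for these genes it was 72.7%, so that the share itself did not stand apart. A start site of another gene within 500 bp on the opposite strand was present for 7 of the 11 genes with an IDR peak (63.6%) and 12 of the other 33 (36.4%). Over all protein-coding genes it was 44.9% with and 28.3% without an IDR peak. When each peak was given only to the protein-coding gene with the nearest start site, eIF1 and eIF2Bbeta were lost and 9 genes were left (20.5%, against 10.5% of all). A peak between 2 start sites does not tell which gene, if either, it bears on.

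**Figure D3:**
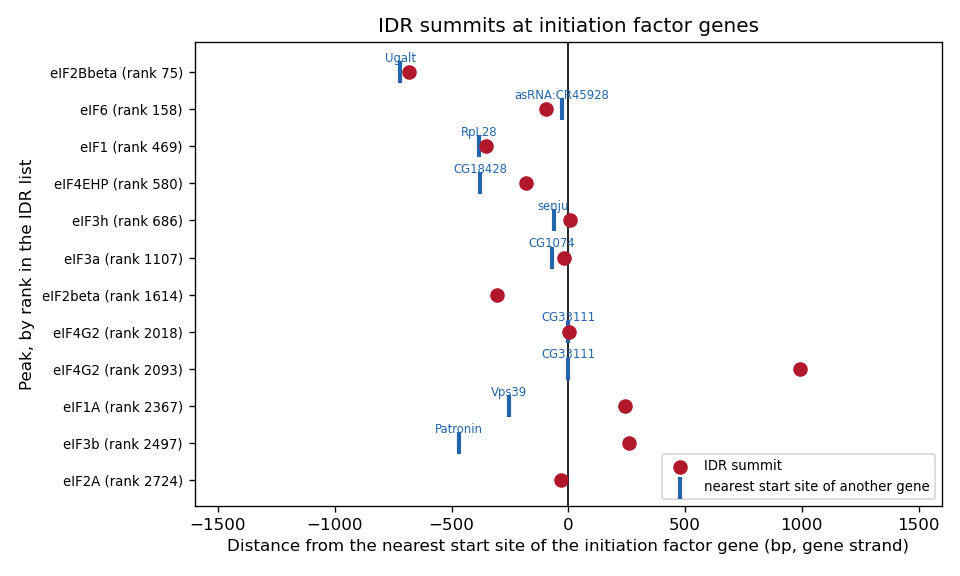
Distance in bp of each of the 12 IDR summits (red points, highest rank at the top) from the nearest start site of its initiation factor gene, on the gene's strand with upstream to the left; blue bars mark the nearest start site of another gene where it is within 1500 bp. At eIF2Bbeta and eIF1 the summit is 37 bp and 27 bp from the start of Ugalt and RpL28 and 682 bp and 354 bp from that of the initiation factor gene.

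IDR peaks also lay inside 2 long member genes, over 1000 bp from their start sites. The 2 such peaks in introns of eIF4EHP had signals of 162.6 (3R, 24106249 to 24106632, rank 1778) and 150.1 (3R, 24098963 to 24099346, rank 2025). The first was 678 bp upstream of Syx1A, the synaptic syntaxin gene nested in eIF4EHP, and 2519 bp from the eIF4EHP start. A narrow peak in an intron of eIF5B (3L, 3432797 to 3432894, signal 162.2, rank 1787) was 27752 bp from the start of eIF5B and 7916 bp upstream of sty, a gene of receptor tyrosine kinase inhibition. Of the pooled peaks, which include background, 25 had summits in eIF5B and 13 in eIF4EHP away from their start sites. Those in eIF4EHP include peaks of rank 3037 and 29862 in the UTRs of Syx1A. No count was made for other genes of such length, so these numbers do not set the 2 genes apart.

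The word AAGCAGT, taken from earlier results of these data, was found at shares near the background. It lay within 100 bp of 1 of the 12 summits (8.33%), that of eIF3h, 78 bp away, against 13.6% of the 1758 IDR peaks within 1000 bp of a start site of any gene. Of the summits within 100 bp of a start site of any gene, 1 of 7 had it (14.3%, against 13.7% of all such IDR peaks). Within 50 bp it was at none of the 12. In the sequence from 250 bp before to 50 bp after the TSS, the farthest upstream of each gene, it was in 1 of the 44 (eIF2Bgamma, 2.27%), against 4.53% of all protein-coding genes. The eIF2Bbeta and eIF6 peaks, of rank 75 and 158, had no copy.

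The DNA replication-related element (DRE), TATCGATA, which is bound by the factor Dref at many housekeeping promoters, was more frequent. It lay within 100 bp of 4 of the 12 summits (33.3%), those of eIF1, eIF2A, eIF3a and eIF6, against 4.66% of all IDR peaks near a start site. The offsets of the nearest copy from the summit, signed along the plus strand of the chromosome, were 62, -53, 16 and -88 bp in that order. The genes eIF3a and eIF6 are on the minus strand, where the sign is the opposite. Only the eIF3a copy was nearer than 50 bp. These 4 summits were among the 7 within 100 bp of a start site of any gene (57.1%), against 10.7% of 657 such peaks. Of the 44 promoters 12 held it (27.3%, against 9.36% of all), and those of eIF1 and eIF2A did not. Of these 12 genes 4, eIF1A, eIF2Bbeta, eIF3a and eIF6, had an IDR peak, beside 11 of all 44 members (25%) and 13.9% of all protein-coding genes. The other 8 had none, eIF2gamma with 3 copies among them. The share with an IDR peak among all promoters that hold the element was not counted. The element GGTCACAC, the core of a housekeeping promoter element known as Ohler motif 1, was in 6 promoters (13.6%, against 7.70%) and at 1 summit, that of eIF2A. TATAAA was in 20 promoters (45.5%, against 45.8%) and at 3 summits (25%, against 27.3%), and the E-box CACGTG was in 3 promoters (6.82%, against 4.20%) and at no summit. GAGAG was in 7 promoters (15.9%, against 29.7%) and at 1 summit (8.33%, against 31%), the second of eIF4G2. None of these words is contained in another, both strands were searched, and a match is a description of the sequence only.

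A TCT initiator word, the start-site element known from ribosomal protein genes, was counted on the gene strand where it began within 10 bp of the TSS. The words counted had C or T, then CTTT, then C or T. They began 3 to 10 bp after the TSS of the genes named here, so none of the words covered the annotated TSS. Whether they act as initiators was not tested. Such words were at 6 of the 44 genes (13.6%), against 2.75% of all protein-coding genes. All 6, namely eIF3e, eIF3f1, eIF3g1, eIF3i, eIF4A and eIF5B, were among the 33 genes without an IDR peak (18.2%), and none of the 11 with one held a word, a number too small to read a difference from. Over all protein-coding genes the order was the opposite, with a word at 5.31% of the 1938 with an IDR peak and 2.33% of the 12007 without. The 30 bases around the start sites of the 6 genes are shown because these are the members with such a word. The TSS is the base after the first 12, and capitals mark the word.
eIF3e, chr3L:16786924-16786953, minus strand: aactctgagcgggcgtcacTCTTTTcgtct
eIF3f1, chr3R:4714165-4714194, minus strand: gcactatcgataggcCCTTTTcttgcatcc
eIF3g1, chrX:2610319-2610348, minus strand: accgcggcagggtaacacTCTTTTgttgct
eIF3i, chr2L:4967758-4967787, minus strand: gccacggtcacactgcTCTTTTggcgtgta
eIF4A, chr2L:5981752-5981781, plus strand: ttgcaagatggagccTCTTTTgcttggttt
eIF5B, chr3L:3460960-3460989, minus strand: aaattccaaaatatgccaaataTCTTTCcg

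Other genes of translation were counted beside the initiation factors. Of 11 genes for elongation and termination 4 held an IDR peak (36.4%, between 15.2 and 64.6 by the interval, against 13.9% of all protein-coding genes) and 9 a pooled peak (81.8%, against 55.6%). The 4 were eEF1gamma, a subunit of the exchange factor of elongation (signal 545.9, rank 280, 14 bp upstream), eEF5, which relieves stalled ribosomes (281.1, rank 764), eEF2, the translocase (260.1, rank 854), and eEF1alpha1, the carrier of aminoacyl-tRNA (153.5, rank 1950). All 4 summits were within 29 bp of the start site. Of 21 genes for regulators of initiation 7 held one (33.3%, between 17.2 and 54.6) and 17 a pooled peak (81%). The highest was 972 bp upstream of Lk6, the kinase gene for eIF4E (1411.3, rank 102), followed by larp (809.8, rank 180, 337 bp upstream), an RNA-binding protein gene. Whether the start site of another gene is nearer to the summits of these lists was not examined. The poly(A)-binding protein gene pAbp had 231.9 (rank 1034, 513 bp downstream), the messenger-ribonucleoprotein gene tral 216.3 (rank 1158), and Thor, which encodes the eIF4E-binding inhibitor, 182.4 (rank 1491, 10 bp downstream). The remaining pair were NAT1, an eIF4G relative, with 152.3 (rank 1977), and Paip2, a regulator of poly(A)-binding protein, with 126.4 (rank 2733). AAGCAGT was within 100 bp of 1 of these 11 summits, that of pAbp. The mTOR kinase gene was not matched by the symbol on the list and was not analysed here.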

How the data were processed

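The 4 lists deposited by the authors are narrowPeak files on dm6, made against a separate control file per the file headers and listing. Deposited signal values (column 7) ranked peaks within a list. The deposited −log10 q-value (column 9) served in 1 alternative, and the deposited summit offset (column 10) gave summits. Aligner, peak caller, IDR threshold and depth are not given in the sources used here. Per the labels, chromatin was sonicated to 200 to 800 bp.

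Genes and TSSs came from Ensembl release 115 (BDGP6.54), without transposable elements and pseudogenes, and bases from RefSeq's copy of the assembly. All 92821 peak entries fell inside their chromosomes, and all 44 genes read ATG at the first coding codon. Shares have 95% Wilson intervals, and no test was run. The members, gene lists and words were chosen with earlier results of these data known. Named were all members with an IDR peak, their nearest neighbours, the highest pooled peaks per class, members without a peak, and listed translation genes with an IDR peak (21 of 22 regulator and all 11 elongation and termination symbols matched). Other members were named after their values were seen. Gene assignment was tested on simulated data, and the word counts were not. Tables were made in Python 3.11.15 with pandas 2.3.3 and numpy 2.4.6, intervals with scipy 1.17.1 and plots with matplotlib 3.10.9.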

Additional observations from a re-analysis of the deposited data

How the results depend on the processing

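The 11 genes with an IDR peak became 6 with a window of 200 bp and 6 with the higher 1410 IDR peaks, and 10 to 13 where the 2821 highest peaks of 1 replicate replaced the IDR list. Without replicate 2, 10 of the 11 were shared and eIF2Bepsilon, eIF3c and eIF4A joined. Without replicate 3, 9 were shared and eIF3c joined. The other 6 alternatives gave 9 to 14 genes. The 20 genes with a peak in both replicate lists became 9 among the highest 2821 entries of each. The signed median distance of -32 bp was -139 bp with a window of 2000 bp and with the higher 1410 peaks, and -64 to -24 bp without 1 replicate. AAGCAGT was at 1 of 12 summits, at 0 within 50 bp, and at 0 to 1 without 1 replicate. The 21 signal values of single genes under other windows did not move, but a value was read only where the gene kept an IDR peak. With a window of 500 bp eIF2Bbeta, the highest, had no IDR peak and gave no value. The window of 200 bp lost eIF1, eIF1A, eIF2Bbeta, eIF2beta and eIF3b. The cause of these changes was not tested. No paired analysis was possible because there is 1 group. Unknown depth limits what a missing peak means.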
